A study of Homo sapiens with 8 samples.

Results

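The epithelial-mesenchymal transition (EMT) genes described here are the transcription factors SNAI1, SNAI2, TWIST1, TWIST2, ZEB1, ZEB2 and PRRX1, the cadherins CDH2 and CDH11, and the intermediate filament gene VIM. They were taken by symbol from the table of normalized counts, and all 10 were found among its 47591 genes, of which 26807 carry a symbol. The libraries were made from polyadenylated RNA of SH-SY5Y cells, a human neuroblastoma line from the ATCC that is widely used as a model of sympathetic neurons. The G2 line carried Cas9 and a guide RNA against PRPF40B, which encodes a splicing factor, and has 3 libraries. The scramble line, SCR, carried Cas9 editing reagents with a control guide and also has 3 libraries. The WT line, with 2 libraries, was not edited. Means are given with the SD over these libraries (n = 3 in G2 and SCR, n = 2 in WT). According to the study's methods, edited cells were selected with puromycin, colonies were raised by limiting dilution, and the SCR and G2 lines were kept in puromycin, a treatment not mentioned for WT. All 3 lines grew in the same medium with serum. The effect of the guide and that of the colony behind the G2 line cannot be told apart, because this guide was read in a single edited line.

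EMT is the change by which a cell loses epithelial junctions and polarity and takes on a migratory, mesenchymal form. The SNAI and ZEB proteins are zinc finger repressors that bind E-box sequences in the promoters of epithelial genes such as CDH1, while the TWIST proteins are basic helix-loop-helix factors and PRRX1 is a homeobox factor. A switch from E-cadherin (CDH1) to N-cadherin (CDH2) and a rise of vimentin (VIM) are the usual markers of the change. Neuroblastoma descends from the neural crest, whose cells leave the neural tube by an EMT of their own, so that several of these factors belong to the normal history of the lineage. In neuroblastoma, an adrenergic and a mesenchymal cell state are distinguished.

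The labels were first checked on the targeted gene. PRPF40B had 840, 841 and 918 normalized counts in the G2 libraries, 1686, 1672 and 1669 in SCR, and 1972 and 1668 in WT. It was lower in G2 than in SCR, with a log2 fold change of -0.95 ± 0.08 (SE, adjusted p = 7.4e-07), and lower than in WT by a log2 fold change of -1.07 ± 0.09 (SE, adjusted p = 7.9e-07). Depth was similar, with 59804395 to 81080747 recovered counts per library. The WT libraries stood apart in the share of counts on ribosomal RNA genes, 4.75% to 4.96% against 0.38% to 0.59% in G2 and SCR. A gene was called DE where limma gave 1.5-fold or more together with an unadjusted p no higher than 0.05, and the Benjamini-Hochberg adjusted p over all 18947 genes tested is given beside it. The labels number the libraries of each line as biological replicates without saying how they were cultured apart, so p-values measure the spread between these libraries. The comparisons share libraries, so the values of G2/SCR and G2/WT are not independent of each other.

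Between the edited line and its controls, the cadherins and vimentin showed the clearest differences among the EMT genes. CDH2, CDH11, VIM and SNAI2 were higher in G2 in both comparisons, PRRX1 was read in G2 alone, and ZEB2 and TWIST1 moved by less than 1.5-fold, ZEB2 upward and TWIST1 downward. Of the 8 members above 10 normalized counts in every line, 4 were called higher and 1 lower in G2/SCR, where 15.1% and 11.8% of all genes tested were called higher and lower. In G2/WT, limma called 4 higher and 0 lower, against 17.7% and 12.2% of all genes, and 1 member, TWIST1, was lower by its unadjusted p alone. In SCR/WT, the comparison of the controls, 1 was called higher, against 10.7% of all genes called higher and 5.63% called lower. The median log2 fold change over these 8 members was 0.73 in G2/SCR, 0.88 in G2/WT and 0.23 in SCR/WT, where the medians over all genes were -0.01, 0.00 and 0.01. TWIST2 did not pass the filter of a mean of 10, and PRRX1 passed it only through its G2 libraries, so neither is in these counts.

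**Figure D1:**
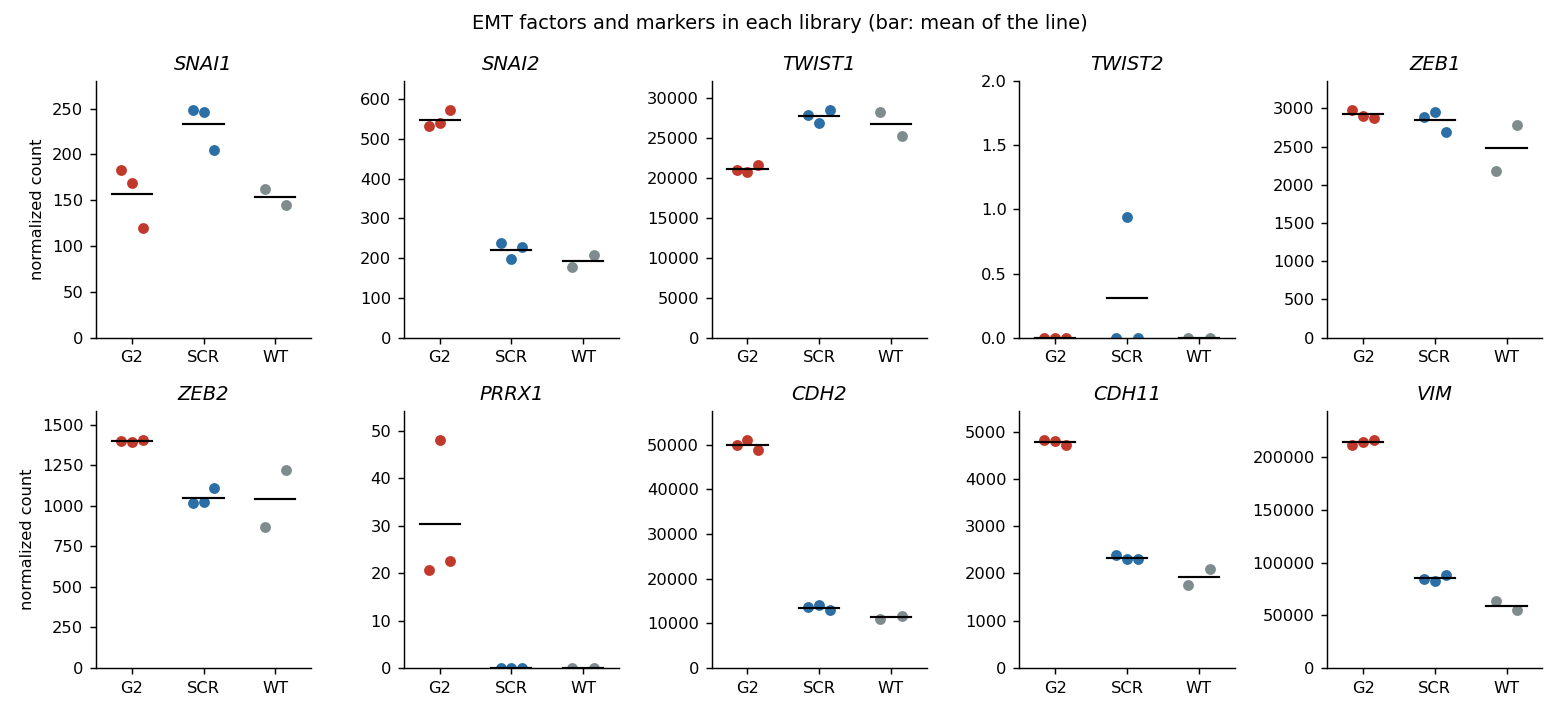
Normalized counts of the 10 EMT genes in each library, with a linear axis from 0 in every panel, 1 point per library and a bar at the mean of the line. The G2 libraries of SNAI2, ZEB2, PRRX1, CDH2, CDH11 and VIM lie above all 5 control libraries, and those of TWIST1 lie below them.

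N-cadherin, encoded by CDH2 on chromosome 18 (hg38, 27950966 to 28177444), is the calcium-dependent adhesion molecule of neurons and mesenchymal cells. It had 49944, 51086 and 48874 normalized counts in the G2 libraries, 13644, 14031 and 12887 in SCR, and 11052 and 11628 in WT. All G2 libraries lay far above the controls, with no overlap. CDH2 was 3.70-fold higher in G2 than in SCR, a log2 fold change of 1.89 ± 0.05 (SE, adjusted p = 6.1e-11), and 4.41-fold higher than in WT, a log2 fold change of 2.14 ± 0.06 (SE, adjusted p = 5.2e-11). SCR exceeded WT by 0.25 ± 0.06 on the log2 scale, which stayed under the fold threshold. The study blotted N-cadherin protein in WT and G2 cells, untreated and during differentiation. Its discussion names the protein as downregulated on PRPF40B silencing, beside losses it reports upon differentiation. That direction is opposite to the RNA here. No differentiation treatment is given for the sequenced cells, so the conditions compared may differ. Why RNA and protein differed was not tested.

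Cadherin-11, encoded by CDH11 on chromosome 16 (64943753 to 65122092), is a type II cadherin first known from osteoblasts and other mesenchymal cells. Its values were 4829, 4810 and 4728 in G2, 2387, 2297 and 2297 in SCR, and 1764 and 2092 in WT. The G2 libraries again lay above all controls. The fold change was 2.06 in G2/SCR (log2 1.04 ± 0.07, SE, adjusted p = 1.0e-07) and 2.49 in G2/WT (log2 1.32 ± 0.08, SE, adjusted p = 3.8e-08). SCR and WT differed by 0.28 ± 0.08 on the log2 scale and were not called.

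Vimentin is the intermediate filament of mesenchymal cells and of neural progenitors. VIM, on chromosome 10 (17228241 to 17237593), had 211955, 214806 and 216529 normalized counts in G2, 84681, 82625 and 88286 in SCR, and 63778 and 54583 in WT. The 3 lines did not overlap, with G2 highest and WT lowest. The fold change was 2.52 in G2/SCR (log2 1.33 ± 0.06, SE, adjusted p = 4.0e-09) and 3.63 in G2/WT (log2 1.86 ± 0.07, SE, adjusted p = 6.7e-10). SCR was 1.44-fold above WT (log2 0.53 ± 0.07, SE, adjusted p = 1.1e-04), just under the threshold, and passed it at a log2 fold change of 0.64 without WT replicate 1. An antisense gene, VIM-AS1, overlaps the start of VIM and had means of 74.0, 58.9 and 34.4 in G2, SCR and WT, far fewer than VIM. The strand setting of the counting is not given in the sources used here, so reads from overlapping genes of opposite strand may not have been separated.

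**Figure D2:**
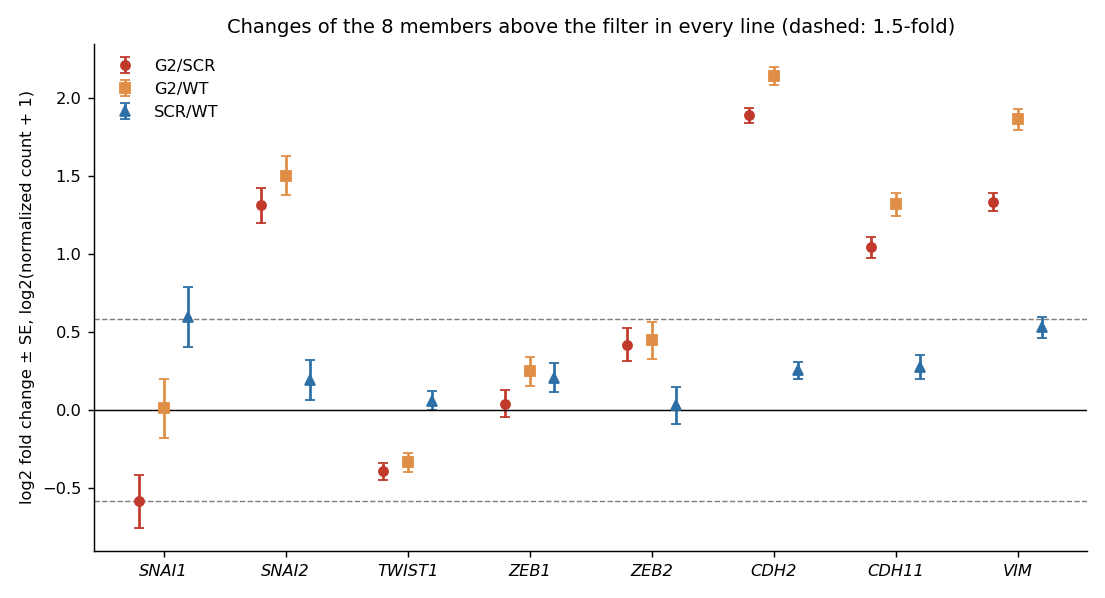
Log2 fold changes with their standard errors for the 8 EMT genes above the filter in every line, in G2/SCR, G2/WT and SCR/WT, on the scale log2(normalized count + 1). CDH2, CDH11, VIM and SNAI2 lie above the dashed line of 1.5-fold in both G2 comparisons, from 1.04 to 2.14, while ZEB1, ZEB2 and TWIST1 stay inside it.

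The SNAI paralogs went different ways. SNAI2, encoding the repressor Slug on chromosome 8 (48917598 to 48922362), had 533, 540 and 574 normalized counts in G2, 238, 197 and 229 in SCR, and 179 and 208 in WT. The G2 libraries lay above every control library. SNAI2 was 2.48-fold higher in G2/SCR (log2 1.31 ± 0.11, SE, adjusted p = 1.4e-06) and 2.83-fold higher in G2/WT (log2 1.501 ± 0.13, SE, adjusted p = 1.2e-06), and SCR/WT was not called (log2 0.19 ± 0.13, SE, adjusted p = 0.27). Its chromosome neighbours moved upward too. The 5 tested genes within 2 Mb with a mean of at least 100 had a median log2 difference of 0.67 against SCR and 0.28 against WT, and the part of this in the SNAI2 value was not tested. For the other members the median of the neighbours ran from -0.11 near TWIST2 to 0.26 near ZEB1 in G2/SCR.

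SNAI1, encoding the repressor Snail on chromosome 20 (49982980 to 49988886), had 183, 169 and 119 normalized counts in G2, 249, 246 and 205 in SCR, and 163 and 145 in WT. The G2 libraries lay below all SCR libraries and on both sides of WT, so that SCR was the line that stood apart. SNAI1 was called lower in G2/SCR, at a log2 fold change of -0.59 ± 0.17 (SE, adjusted p = 0.013), and called higher in SCR/WT, at 0.59 ± 0.19 (SE, adjusted p = 0.030). In G2/WT the log2 difference was 0.01 ± 0.19 (SE). Both calls sat at the fold threshold. The call in G2/SCR was lost without G2 replicate 3 (-0.40), SCR replicate 1 (-0.54) or SCR replicate 2 (-0.54), and with edgeR (-0.56) and DESeq2 (-0.57) on recovered counts. The call in SCR/WT was lost without SCR replicate 1 (0.54), SCR replicate 2 (0.55) or WT replicate 2 (0.51).

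A ratio of paralogs within a library does not depend on how the library was scaled, and these ratios are described without a test. The SNAI2 to SNAI1 ratio was 2.89, 3.19 and 4.78 in the G2 libraries, 0.955, 0.802 and 1.12 in SCR, and 1.10 and 1.44 in WT. SNAI2 thus had the more counts in all G2 libraries, while in the controls the paralogs were near equal. The mean log2 ratio was 1.82 ± 0.38 (SD) in G2, -0.07 ± 0.24 (SD) in SCR and 0.33 ± 0.27 (SD) in WT. The ZEB2 to ZEB1 log2 ratio was -1.06 ± 0.03 (SD), -1.44 ± 0.14 (SD) and -1.26 ± 0.10 (SD), highest in G2. The CDH11 to CDH2 log2 ratio was -3.38 ± 0.02 (SD) in G2, below -2.54 ± 0.06 (SD) in SCR and -2.56 ± 0.12 (SD) in WT.

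**Figure D3:**
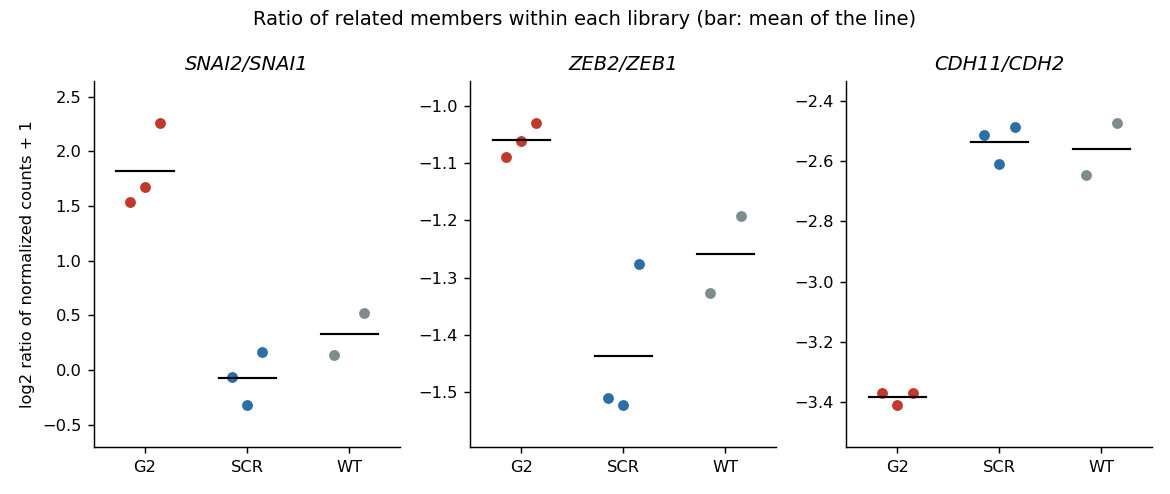
Log2 ratio of SNAI2 to SNAI1, ZEB2 to ZEB1 and CDH11 to CDH2 in each library, computed from normalized counts plus 1, with a bar at the mean of the line and a separate vertical axis for each pair. The G2 libraries do not overlap the controls in any of the pairs, lying above them for SNAI2/SNAI1 (1.53 to 2.26) and ZEB2/ZEB1 and below them for CDH11/CDH2.

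The ZEB proteins are repressors with a zinc finger cluster at each end, and both genes stayed under the fold threshold. ZEB1 on chromosome 10 (31318417 to 31529804) had 2985, 2905 and 2877 normalized counts in G2, 2890, 2947 and 2690 in SCR, and 2175 and 2786 in WT. The G2 and SCR values overlapped. Its log2 fold change was 0.04 ± 0.08 (SE, adjusted p = 0.72) in G2/SCR, turning to -0.05 when libraries were scaled to the same total, and 0.25 ± 0.09 (SE, adjusted p = 0.042) in G2/WT, under the fold threshold. The overlapping antisense gene ZEB1-AS1 had means of 249, 362 and 165 in G2, SCR and WT and was called higher in G2/WT and SCR/WT. ZEB2 on chromosome 2 (144384081 to 144520349) had 1403, 1392 and 1408 in G2, 1014, 1026 and 1109 in SCR, and 867 and 1219 in WT. All G2 libraries were above all controls. ZEB2 differed by 0.42 ± 0.11 on the log2 scale in G2/SCR (SE, adjusted p = 0.0063) and by 0.45 ± 0.12 in G2/WT (SE, adjusted p = 0.0076), both under 1.5-fold, and without WT replicate 2 the G2/WT difference was 0.69 and called.

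TWIST1, on chromosome 7 (19113047 to 19117672), encodes a basic helix-loop-helix factor that works with E-proteins and HAND proteins. It had 21009, 20674 and 21631 normalized counts in G2, 27826, 26869 and 28525 in SCR, and 28189 and 25185 in WT. All G2 libraries lay below all controls. TWIST1 stood at a log2 fold change of -0.39 ± 0.05 (SE, adjusted p = 7.3e-05) in G2/SCR and at -0.34 ± 0.06 (SE, adjusted p = 5.5e-04) in G2/WT, a difference past the adjusted p but under 1.5-fold. Its paralog TWIST2, on chromosome 2 (238848032 to 238910543), was at 0 in 7 libraries and had 1 recovered count in SCR replicate 2. PRRX1, on chromosome 1 (170663162 to 170739421), had 20.7, 48.2 and 22.6 normalized counts in G2 (22, 44 and 21 recovered counts) and 0 in all 5 control libraries. Its G2 mean of 30.5 ± 15.4 (SD) was 3.74 times the floor of 9 recovered counts per library in SCR, and 3.03 times that floor in WT. These ratios do not allow for the spread between the G2 libraries.

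A lack of overlap was common in this table, which bears on how these patterns are read. Of the 8 members above 10 normalized counts in every line, the G2 libraries lay above all controls for 5 and below them for 1, against 22.8% and 19.7% of all genes tested. Called in the same direction in both G2 comparisons were 17.7% of all genes. In bulk RNA, more cells of a type and more RNA per cell cannot be told apart.

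Levels between genes were compared as normalized counts per kb of the GENCODE canonical transcript. VIM was first in every line, at 99550 ± 1072 per kb (SD) in G2, 39553 ± 1330 (SD) in SCR and 27475 ± 3019 (SD) in WT, and stood at or above the 98.6th percentile of 18655 genes in each. TWIST1 followed, at 12948 ± 298 (SD), 17018 ± 510 (SD) and 16372 ± 1303 (SD) per kb, then CDH2 at 12442 ± 275 (SD), 3367 ± 145 (SD) and 2824 ± 101 (SD). In G2, TWIST1 and CDH2 lay within their spread of each other, while in the controls TWIST1 was far above CDH2. CDH11 came next in G2, at 712 ± 7.97 per kb (SD), above ZEB1 at 492 ± 9.43 (SD). In SCR and WT this order was turned, with ZEB1 at 479 ± 22.8 (SD) and 418 ± 72.7 (SD) and CDH11 at 346 ± 7.73 (SD) and 287 ± 34.5 (SD). In SCR, SNAI1 at 137 ± 14.5, ZEB2 at 113 ± 5.60 and SNAI2 at 102 ± 9.83 per kb (SD) followed, with only ZEB2 and SNAI2 overlapping within 1 SD. In G2 the next were SNAI2 at 252 ± 10.1, ZEB2 at 151 ± 0.884 and SNAI1 at 92.2 ± 19.7 per kb (SD). In WT, ZEB2 at 113 ± 26.9, SNAI1 at 90.2 ± 7.34 and SNAI2 at 88.8 ± 9.63 per kb (SD) did not differ beyond their spread. PRRX1 was the lowest of the factors read in G2, at 7.51 ± 3.78 per kb (SD).

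The epithelial genes that EMT factors repress were the next group. Of 40 genes of junctions, polarity, keratins and epithelial splicing, 25 were tested, and 6 were called higher and 6 lower in G2/SCR, beside 15.1% and 11.8% of all genes. In G2/WT 12 were called higher and 2 lower, beside 17.7% and 12.2% of all genes. Their median log2 fold change was 0.57 and 0.84. Some genes of this list and of those that follow passed the filter only through the lines where they were high, so counts are also given over genes with a mean of at least 10 in every line. Of the 19 such epithelial genes, 6 were called higher and 5 lower in G2/SCR and 9 higher and 1 lower in G2/WT, with medians of 0.51 and 0.73. In SCR/WT, 10 of the 25 tested were called higher and 1 lower, beside 10.7% and 5.63% of all genes. Over the 19, SCR/WT had 8 higher and 1 lower. The 10 higher became 6 without SCR replicate 1 or without WT replicate 1. CDH1, encoding E-cadherin, was low throughout, at 47.8 ± 15.4 (SD) normalized counts in G2, 51.2 ± 8.10 (SD) in SCR and 84.4 ± 49.2 (SD) in WT, and was not called in either G2 comparison. Per kb, CDH2 stood at 12442 and CDH1 at 9.93 in G2, and in the controls at 3367 and 10.6 (SCR) and 2824 and 17.5 (WT).

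Among the epithelial genes called in G2/SCR were PATJ and PKP2. PATJ, a polarity scaffold of the Crumbs complex, rose from 249 ± 20.4 (SD) normalized counts in SCR to 473 ± 20.4 (SD) in G2, a log2 fold change of 0.93 ± 0.10 (SE, adjusted p = 1.2e-05). PKP2, a desmosomal plakophilin, was at 257 ± 27.5 (SD) in SCR, 102 ± 22.3 (SD) in G2 and 142 ± 13.5 (SD) in WT. PKP2 was called lower in G2/SCR, not called in G2/WT (log2 -0.49 ± 0.20, SE, adjusted p = 0.054) and called higher in SCR/WT (log2 0.85 ± 0.20, SE). EPCAM, an epithelial adhesion molecule, was called lower in G2/SCR (log2 -0.70 ± 0.27, SE, adjusted p = 0.053), and G2 and WT stood at 41.9 and 40.8. ESRP1, a splicing regulator of epithelial cells, had 31.4 ± 5.53 (SD), 25.5 ± 5.81 (SD) and 12.9 ± 4.21 (SD) in G2, SCR and WT. It was called higher in G2/WT (adjusted p = 0.023) and in SCR/WT (adjusted p = 0.096), but not in G2/SCR. Its relative ESRP2 was not called, at 28.7, 21.4 and 14.3, and GRHL2, a driver of the epithelial state, was at or under 1 recovered count per library. The defining genes CDH1, EPCAM, ESRP1 and GRHL2 reached at most 119 normalized counts in any library. Other genes of the list had far more counts, such as JUP and TJP1, named after their values were seen. In G2, SCR and WT, JUP had means of 5552, 4064 and 3106 and TJP1 of 4871, 3277 and 2957. All G2 libraries lay above all controls for both, as they did for 22.8% of all genes tested. JUP and TJP1 were called higher in G2/WT but not in G2/SCR. The opposite held for PKP2, KRT7 and GRHL1, the latter pair named after their values were seen. Their G2 libraries lay below all controls, as for 19.7% of all genes tested. KRT7 averaged 7.49 normalized counts in G2, under the floor of 9 recovered counts, which averages 9.33 normalized counts there.

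The E-boxes CACCTG and CAGGTG (1 motif, read on both strands), to which SNAI and ZEB repressors bind, were looked up in RefSeq promoter windows on GRCh38.p14 that run from 250 bases before to 50 after a start site. A match was found in 20.6% of all 35116 windows, and 6571 of 27305 genes had at least 1. Of the 21 epithelial genes with an entry, 17 had at least 1, and of the 6 members with an entry, 1 had any, which was ZEB1. Of the 13 windows of members, 2 held a match, both of ZEB1. CLDN7 and CRB3, epithelial claudin and polarity genes, held 5 matches each in the window shown, and PATJ held 3. The other listed window of CLDN7 held 0. Shown are 280 bases of these windows, 5′ to 3′ on the strand of transcription and ending 30 bases after the start, with the E-boxes in capitals, because they set epithelial genes with several matches beside the member that carries the same motif.
CLDN7 (chr17:7262449-7262728, minus strand): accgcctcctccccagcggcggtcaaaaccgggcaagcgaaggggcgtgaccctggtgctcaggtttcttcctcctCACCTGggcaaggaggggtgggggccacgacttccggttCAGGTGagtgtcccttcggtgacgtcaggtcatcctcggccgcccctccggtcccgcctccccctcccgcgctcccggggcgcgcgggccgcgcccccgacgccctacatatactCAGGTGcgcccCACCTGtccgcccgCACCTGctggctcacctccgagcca
CRB3 (chr19:6464021-6464300, plus strand): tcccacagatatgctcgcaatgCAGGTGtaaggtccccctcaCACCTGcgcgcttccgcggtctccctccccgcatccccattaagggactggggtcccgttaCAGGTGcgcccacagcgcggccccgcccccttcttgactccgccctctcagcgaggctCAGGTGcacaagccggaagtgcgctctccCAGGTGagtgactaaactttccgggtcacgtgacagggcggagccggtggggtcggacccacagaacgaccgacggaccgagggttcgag
PATJ (chr1:61742230-61742509, plus strand): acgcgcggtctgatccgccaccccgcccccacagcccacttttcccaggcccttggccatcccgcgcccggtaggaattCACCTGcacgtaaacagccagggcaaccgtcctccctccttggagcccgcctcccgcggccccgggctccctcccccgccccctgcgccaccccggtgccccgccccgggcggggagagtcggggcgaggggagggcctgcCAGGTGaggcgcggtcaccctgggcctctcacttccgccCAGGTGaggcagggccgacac
ZEB1 (chr10:31318966-31319245, plus strand): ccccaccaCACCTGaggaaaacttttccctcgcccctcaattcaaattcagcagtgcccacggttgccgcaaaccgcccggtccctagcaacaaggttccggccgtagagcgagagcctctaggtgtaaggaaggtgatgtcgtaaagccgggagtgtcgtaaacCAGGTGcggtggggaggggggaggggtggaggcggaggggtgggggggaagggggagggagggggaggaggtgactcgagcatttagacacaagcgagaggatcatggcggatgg

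These 4 windows belonged to genes of unlike values. CLDN7 had 0, 0 and 5.37 normalized counts in G2, 4.08, 5.63 and 8.31 in SCR, and 24.8 and 19.9 in WT, so that WT was highest. CRB3 stayed between 0 and 21.4 normalized counts in every library. PATJ, with matches in its window, rose in G2, and ZEB1, where another of its listed start sites is shown with 2 of the 3 matches in its full window of 300 bases, did not differ between G2 and SCR beyond its error. A match describes the letters only. CDH2, VIM and PRRX1, all higher in G2, have entries without a match.

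The wider families of the members were counted by the same rule. Over all genes tested, 15.1% were called higher and 11.8% lower in G2/SCR, and 17.7% and 12.2% in G2/WT. Of 20 classical cadherins, 12 were tested, and 8 were called higher and 1 lower in G2/SCR, with 5 higher and 2 lower in G2/WT. CDH2 and CDH11 are among them. Over the 9 with a mean of at least 10 in every line, 5 were called higher and 1 lower in G2/SCR and 4 higher and 2 lower in G2/WT. CDH20 had the next smallest p, with 134, 120 and 129 normalized counts in G2, 22.5, 29.1 and 35.5 in SCR, and 65.8 and 49.6 in WT, a log2 difference of 2.12 ± 0.23 against SCR (SE, adjusted p = 1.1e-05). The called cadherin that was lower was CDH15, named after its values were seen, at 33.3 ± 10.2 (SD) in G2 and 49.6 ± 3.11 (SD) in SCR, and its call was lost without any 1 of the SCR libraries. CDH4, the R-cadherin of neural tissue, also named after its values were seen, was called lower in G2/WT, at 167 ± 17.3 (SD) against 569.5 ± 18.8 (SD). Cadherins are tethered to actin by catenins. Of 15 catenin and junction adaptor genes, 14 were tested, and 5 were called higher and 1 lower in G2/SCR. In G2/WT limma called 6 higher and 0 lower, with 3 lower by the unadjusted p alone. The lower call in G2/SCR was lost without G2 replicate 1 or SCR replicate 3, and without WT replicate 2 there was 1 lower call in G2/WT. VCL, the vinculin of adhesion sites, had 8357, 8253 and 8109 normalized counts in G2, 2595, 2655 and 2541 in SCR, and 1781 and 1912 in WT, a 3.17-fold rise in G2/SCR (adjusted p = 2.6e-10). CTNNA1, α-catenin, rose 1.89-fold and NECTIN2, an adhesion receptor, 2.40-fold in G2/SCR. CTNNB1, β-catenin, named after its values were seen, was not called, with a log2 difference of 0.04 ± 0.05 (SE).

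The intermediate filament genes were the next family, and their list also holds PLEC, a filament linker named after its values were seen. Of 17, 15 were tested, and 5 were called higher and 4 lower in G2/SCR and 5 higher and 3 lower in G2/WT, of which VIM is 1. Over the 12 with a mean of at least 10 in every line, 3 were called higher and 4 lower in G2/SCR and 3 higher and 3 lower in G2/WT. Without G2 replicate 3, 3 were called higher in each. The shares over all genes tested were 15.1% higher and 11.8% lower in G2/SCR, and 17.7% and 12.2% in G2/WT. NEFM, INA and NEFH, all neurofilament subunits of neurons, had the lowest p in G2/SCR, and all fell. NEFM had 7670, 7884 and 7912 normalized counts in G2, 32590.5, 34319 and 33771 in SCR, and 21941 and 23631 in WT, with log2 fold changes of -2.10 ± 0.05 against SCR (SE, adjusted p = 2.4e-11) and -1.54 ± 0.06 against WT (SE, adjusted p = 6.3e-10). INA and NEFH had log2 fold changes of -1.51 and -1.87 in G2/SCR. The other gene called lower, NEFL, was named after its values were seen, and had a log2 fold change of -0.9959 ± 0.06 against SCR and -0.39 ± 0.07 against WT (SE), the latter not called. LMNA, encoding nuclear lamins, and NES, encoding the progenitor filament nestin, both named after their values were seen, were 1.99-fold and 1.62-fold higher in G2/SCR. Per kb, VIM exceeded NEFL, the most abundant neurofilament gene, in every line, at 99550 against 9464 in G2, 39553 against 18832 in SCR and 27475 against 12332 in WT.

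**Figure D4:**
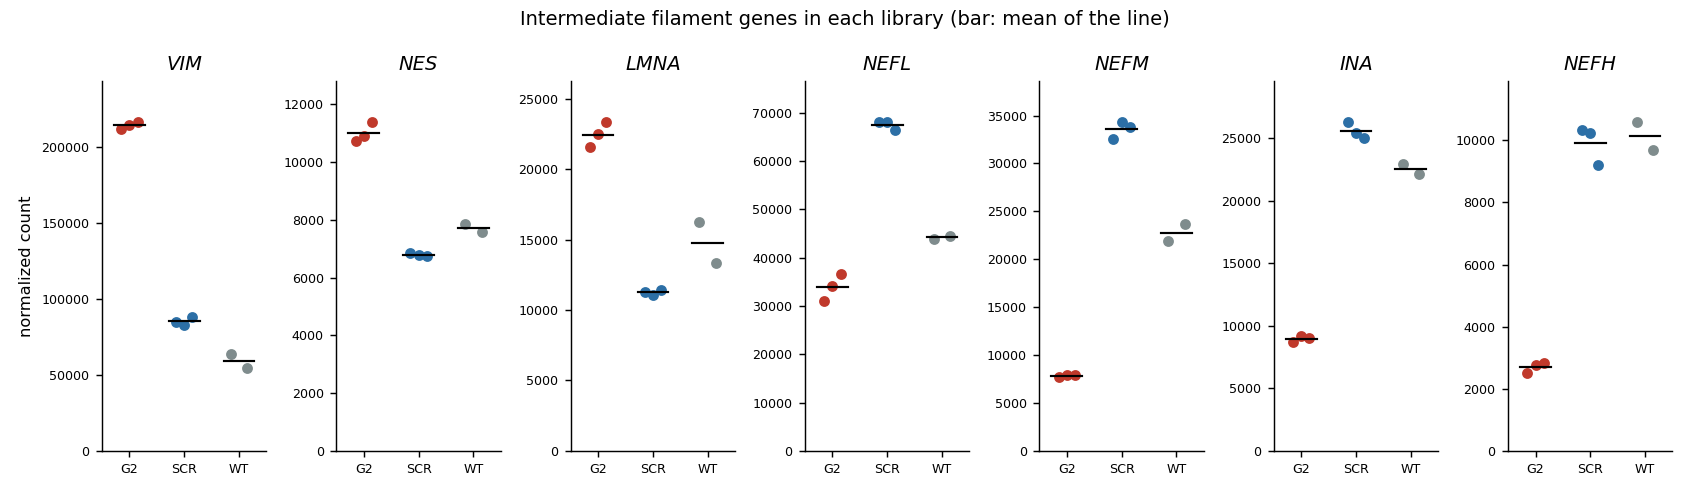
Normalized counts of VIM and 6 other intermediate filament genes in each library, with a linear axis from 0 in every panel and a bar at the mean of the line. The G2 libraries of VIM, NES and LMNA lie above all controls, and those of NEFL, NEFM, INA and NEFH lie below them.

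Other transcription factors known to drive EMT were read beside the members. Of 19, 11 were tested, and 5 were called higher and 2 lower in G2/SCR and 8 higher and 0 lower in G2/WT by limma, with 2 lower by the unadjusted p alone, or 1 called lower without G2 replicate 1, G2 replicate 3 or either WT library. Over the 8 with a mean of at least 10 in every line, 4 were higher and 1 lower in G2/SCR, and 5 were higher in G2/WT. Among all genes tested, 15.1% were higher and 11.8% lower in G2/SCR, and 17.7% and 12.2% in G2/WT. TEAD2, a DNA-binding partner of YAP, stood at 6735 ± 182 (SD) normalized counts in G2, 2679 ± 88.5 (SD) in SCR and 4409 ± 120.0 (SD) in WT. ETS1, of the ETS family, rose from 244 ± 28.8 (SD) in SCR to 746 ± 70.1 (SD) in G2, and SIX2, a homeobox factor, from 53.4 ± 9.92 (SD) to 179 ± 36.4 (SD). All 3 were also called higher in G2/WT.

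The partners through which the factors act were counted next. Of 22 bHLH partners, ID proteins and corepressors, all tested, 5 were called higher and 3 lower in G2/SCR and 3 higher and 3 lower in G2/WT. Over the 21 with a mean of at least 10 in every line, 4 were higher and 3 lower against SCR, and 2 higher and 3 lower against WT. All genes tested gave 15.1% higher and 11.8% lower in G2/SCR, and 17.7% and 12.2% in G2/WT. The partner counts in G2/WT lay near these shares. ID4, an inhibitor that binds bHLH factors without DNA contact, had 9403, 8379.9 and 9047 normalized counts in G2, 1662, 1595 and 1680.1 in SCR, and 303 and 299 in WT. Its lines did not overlap, and it was 5.43-fold higher in G2/SCR (adjusted p = 5.4e-11) and 29.6-fold higher in G2/WT (adjusted p = 4.7e-13). AJUBA, a LIM protein that links SNAI repressors to corepressors, rose 2.89-fold and HDAC1, a histone deacetylase, 1.90-fold in G2/SCR. The genes called lower were HAND1, HAND2 and KDM1A, named after their values were seen. HAND1 and HAND2, bHLH factors of sympathetic neurons that pair with TWIST1, had log2 fold changes of -1.25 and -0.64 in G2/SCR, and KDM1A, a histone demethylase recruited by SNAI1, had -0.67. Of 20 genes that act on the stability of the SNAI, TWIST and ZEB proteins, 18 were tested, and limma called 2 higher and 0 lower in G2/SCR, where 5 were lower by the unadjusted p alone. The edgeR and DESeq2 tests also called 2 higher and 0 lower. They were CTDSP1, a phosphatase, at 1.53-fold, and HSPB1, a chaperone, at 1.66-fold, and neither was called in G2/WT. In G2/WT, 1 gene was called higher, USP27X, a deubiquitinase named after its values were seen, and this call was lost without WT replicate 2. Counts of the stability list lay below the shares over all genes in both comparisons.

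Neural crest specifiers, which lie beside SNAI2 and TWIST1 in the gene network of the crest, were counted too. Of 22, 12 were tested, with 6 called higher and 4 lower in G2/SCR and 6 higher and 2 lower in G2/WT. Shares over all genes tested were 15.1% and 11.8% in G2/SCR, and 17.7% and 12.2% in G2/WT. GBX2, named after its values were seen, passed the filter only through G2, and over the other 11 the calls were 5 higher and 4 lower in G2/SCR and 5 higher and 2 lower in G2/WT. SOX9, a crest and cartilage factor, had 3384, 3109.7 and 3413 normalized counts in G2, 300.04, 330.3 and 271 in SCR, and 113 and 84.4 in WT, an 11.0-fold difference in G2/SCR. LMO4, a LIM-only cofactor, was at 3272 ± 23.9 (SD), 63.7 ± 21.4 (SD) and 124 ± 20.3 (SD). TFAP2B fell, by -1.12 ± 0.05 on the log2 scale against SCR and -0.65 ± 0.06 against WT (SE). SOX10 and PAX3, defining genes of the migrating crest, were at 0 in every library. Of the 9 antisense genes beside members and their relatives, 5 were in the table and 4 were tested, with 0 called in G2/SCR by limma and 2 called higher in G2/WT. In G2/SCR, 1 of them, ZEB1-AS1, was lower by its unadjusted p alone, and edgeR called 1 and DESeq2 0.

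**Figure D5:**
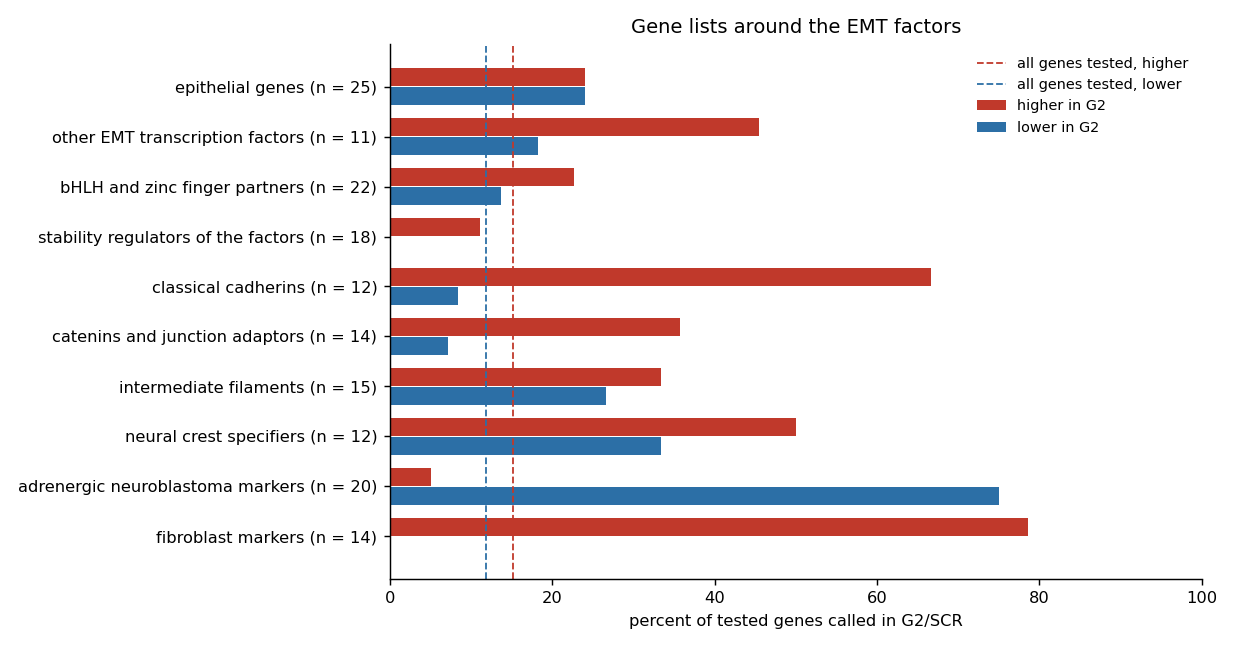
Share of the tested genes of each list called higher or lower in G2/SCR, in percent, with dashed lines at 15.1% and 11.8%, the shares over all genes tested. Genes that reached a mean of 10 only in some lines are included. Fibroblast markers and classical cadherins have the highest shares called higher and adrenergic markers the highest share called lower, and the cadherin and intermediate filament lists contain CDH2, CDH11 and VIM.

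Marker lists were read to check the line and the cells in it. Of 20 adrenergic neuroblastoma markers, all tested and none at 0 in a whole line, 1 was called higher and 15 lower in G2/SCR, and 2 higher and 14 lower in G2/WT. Over the 19 with a mean of at least 10 in every line, 14 were lower against SCR and 13 against WT. Among all genes tested, 15.1% were called higher and 11.8% lower in G2/SCR, and 17.7% and 12.2% in G2/WT. Their summed level was 385809 to 398369.6 normalized counts in G2, 547663 to 572284 in SCR and 535195 to 559617 in WT. CHGA, encoding the granule protein chromogranin A, had 3311, 2818 and 3172 in G2, 25507, 24737 and 28146 in SCR, and 35596 and 31295 in WT. DBH and ALK had log2 fold changes of -1.74 and -1.89 in G2/SCR. Of 16 fibroblast markers, 14 were tested, and limma called 11 higher and 0 lower in G2/SCR and 10 higher and 0 lower in G2/WT. Over the 13 with a mean of at least 10 in every line, 10 were higher against SCR and 9 against WT. By the unadjusted p alone, none of them was lower against SCR and 1 was lower against WT, and edgeR and DESeq2 also called 11 higher and 0 lower in G2/SCR. Between the controls, in SCR/WT, 6 of the 14 fibroblast markers were called higher and 2 lower. Over the 13, 5 were higher and 2 lower, where 10.7% and 5.63% of all genes tested were called. The summed level of the fibroblast markers was 110233 to 112373 in G2, 34538 to 35739 in SCR and 39772 to 43331 in WT. DCN, a matrix proteoglycan, had 37707, 37595 and 36247 normalized counts in G2, 1104, 951 and 1098 in SCR, and 179 and 154 in WT. COL1A1 and LUM had log2 fold changes of 2.60 and 2.32 in G2/SCR. POSTN was at 0 in every library, MFAP5 was at 0 in G2 and WT, and PDGFRA was not called. These lists moved with CDH2, CDH11 and VIM, and their part in those values was not tested. Schwann cell and melanocyte markers summed to 420.2 to 472 normalized counts in G2 and 641 to 825 in SCR, with SOX10, TYR and MLANA at 0 in every library, and of the 5 with a mean of at least 10 in every line, 1 was called lower in G2/SCR. Endothelial and blood markers summed to at most 118 in any library, with PECAM1, CD3E and HBB at 0 in every library, and 1 of 3 tested was called higher in G2/SCR, a call lost without G2 replicate 1 or SCR replicate 1. This gene was VWF, named after its values were seen, which passed the filter only through G2.

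For each member called in a G2 comparison, the 2 genes nearest in pattern were found by the root mean square (RMS) difference in centred log2(normalized count + 1) over the 8 libraries, among 13064 other genes with a mean of at least 100. Nearest to CDH2 were KIF1C (RMS 0.05) and ATP2B1 (0.08), and nearest to CDH11 were RHBDD1 (0.05) and RNFT1 (0.06). VAT1L (0.06) and NECTIN2 (0.06) were nearest to VIM, and C21orf91 (0.07), which shares its row with C21orf91-OT1, and PCDHB6 (0.08) to SNAI2. UBA6-AS1 (0.13) and a row with the symbols LOC100506076 and LOC100506123 (0.11) were nearest to SNAI1. For PRRX1 the nearest were CD274 (0.40) and ARHGDIB (0.41), at a larger distance. The 8 libraries hold 3 lines only, so many genes share such a pattern.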

How the data were processed

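The authors sequenced polyadenylated RNA with a stranded kit, mapped read pairs to hg38 with STAR 2.7.5a, counted them with featureCounts (Subread 1.5.0) on the FAST DB annotation and divided by DESeq2 size factors. The deposited signal is such a normalized count for every gene and library. It is not scaled to length, and no column was left unassigned. Strand setting and treatment of multi-mapping reads are not given in the sources used here. Each library's values were whole multiples of a step, which gave recovered counts (100% whole within 0.02). The step of WT replicate 2 was too near 1 to check this, so edgeR 4.0.16 and DESeq2 1.42.0 were run as alternatives on G2 and SCR only. Low counts were mostly multiples of 3 (71.3% to 75.6%), so sequenced fragments may be fewer than recovered counts, in the depth given above too. The floor was therefore set at 9 recovered counts per library. Ratios of a mean to this floor leave out the spread between libraries.

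The design foresaw counts or normalized values, and for the latter limma 3.58.1 in R 4.3.3 on log2(normalized count + 1), which understates changes of low genes. A single fit held a mean per line, with a trend in eBayes, and took in 18947 genes whose mean reached 10. Genes were called at 1.5-fold and an unadjusted p of 0.05, and lists by counts and medians without a set test. Members and lists were chosen with earlier results of these data known. Named are all members, from each list the 3 called genes of lowest p in G2/SCR, 5 epithelial genes, marker genes and the 2 genes nearest to each called member, others being said to be named after their values were seen. A gene that this rule names is not reported here. Level per kb used the GENCODE 44 canonical transcript and promoters came from RefSeq. The fit was tested on simulated data. Alternatives were the pseudocount, filter, scaling, thresholds, tools, a replicate block and leaving out each library.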

Additional observations from a re-analysis of the deposited data

How the results depend on the processing

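The higher calls of CDH2, CDH11, VIM and SNAI2 in both G2 comparisons held under every alternative run. PRRX1 has no value with a filter of a mean of 100. The 1 lower member in G2/SCR, SNAI1, became 0 with a pseudocount of 10, TMM scaling, a fold of 2, edgeR and DESeq2, and 0 to 1 on leaving out a library. The 1 higher member in SCR/WT became 0 with a pseudocount of 10 or a fold of 2, 2 with libraries scaled to the same total, and 0 to 2 on leaving out a library. PRPF40B in G2/SCR was at a log2 fold change of -0.95, under a fold of 2. In SCR/WT it turned to 0.16 with the same total and ran from -0.23 to 0.0069 on leaving out a library. ZEB1 in G2/SCR turned to -0.050 with the same total. On leaving out a library, SNAI1 in G2/WT ran from -0.11 to 0.19, TWIST1 in SCR/WT from -0.024 to 0.14 and ZEB2 in SCR/WT from -0.22 to 0.28. Where no construction of the alternative shows it, the cause was not tested.

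Scaling to the same total moved the median of all genes to -0.10, 0.19 and 0.29 in G2/SCR, G2/WT and SCR/WT, and the share of calls that were higher from 56.2%, 59.3% and 65.6% to 47.4%, 75.8% and 90.7%. ZEB2 in G2/WT (0.63) and VIM in SCR/WT (0.81) were then called. All-gene calls of 5088, 5657 and 3097 became 2951, 3176 and 1491 at a fold of 2, and 3088, 3633 and 1723 with a mean of at least 100. Of the counts over lists, 1389 were within 1.5 times the reported ones and 145 were not. Of 20 medians of neighbours in the G2 comparisons, 14 moved by more than the spread between replicates with a window of 5 Mb, with SNAI2 at 0.67 and 0.32 in G2/SCR and G2/WT.

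Replicate numbers in the sample titles are shared between lines. Deviations of samples with the same title number had a correlation over 0.1 in 2 of 7 pairs (-0.17 to 0.15). The library names carry other numbers, and pairing by these was not tested. The 2 WT libraries mirror each other once centred, so these pairs cannot decide whether libraries were handled together. With a block on the title numbers, 5059, 5644 and 3057 genes were called, and no member's call changed. CDH2 in G2/SCR stayed at 1.89. Depth limits PRRX1, TWIST2 and the low epithelial genes, whose folds depend on the floor.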
